A study of Homo sapiens with 18 samples.

Results

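The repeats described here are 97 named subfamilies of DNA transposons in RNA from PC9, a human lung adenocarcinoma line that grows on signals from the kinase EGFR. They were chosen by name and not by any measured difference: a name in the deposited table of repeat names that begins with Tigger, Charlie, Cheshire, Zaphod, Arthur, MADE, MER5A, MER5B, MER20 or MER58, is not joined to another name by a comma, and holds at least 50 reads summed over the libraries. Of its 17319 names, 1759 had reads, 99 matched the pattern, and 97 reached the minimum. They comprise 40 Tigger, 40 Charlie, 4 Arthur, 4 MER58, 3 Zaphod, 3 MER5 and 2 MER20 names and Cheshire. MADE1 with 6.5 reads and MADE2 with 0 fell just outside the minimum, and Tigger1a_Mars with 96.3 and Charlie4 with 216.7 reads lay just inside it. A further 68 matching names were joined by commas, of which 7 had reads, and these were left out.

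The study sequenced polyA-selected RNA from 18 libraries in 6 groups of 3, with replicates lettered a to c. Cells given the solvent DMSO form parental_DMSO. Cells that survived 8 days in 1 µM erlotinib, an EGFR inhibitor, with medium and drug renewed, are the drug-tolerant persisters (DTP), and DTP_TSA are such cells given 50 nM trichostatin A (TSA), an inhibitor of histone deacetylases, for 5 hours. The remaining groups are cells after 24 hours in 1 µM erlotinib (erlotinib_24h), after 72 hours in 50 µM carboplatin, a DNA-crosslinking drug supplied fresh each day (carboplatin_72h), and parental cells after 5 hours in 50 nM TSA (parental_TSA). All groups are of the same line, so nothing here speaks of other tumours. The DTP treatment text also refers to ALDH-sorted cells, although the titles list none. Whether the replicates are separate cultures is not stated, and p-values therefore measure only the spread between these samples.

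DNA transposons are mobile elements that code for a transposase, which cuts the element out of the genome and pastes it elsewhere. Human copies are old and no longer move. Tigger elements belong to the pogo-like branch of the Tc1/mariner superfamily. Charlie, Cheshire, MER5, MER20 and MER58 belong to the hAT-Charlie family, and Zaphod and Arthur to the related hAT-Tip100 family. MER5, MER20 and MER58 are short elements that code for no transposase and were spread by that of their relatives. Such copies lie scattered between genes, within introns and in untranslated regions, so a read counted to a Charlie or Tigger name can come from a longer transcript that holds a copy. Reads from near-identical subfamilies may also be divided among several names, so that differences between sister names such as Tigger2 and Tigger2a are uncertain.

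Libraries held 32139343 to 128293531 reads on genes and 28425 to 76510 reads on the 97 names. DTP_TSA a stood apart: 46.0% of its reads came from the ERCC spike-in RNA and 7.09% from ribosomal RNA repeats, where no other library exceeded 0.763% and 3.36%, and it had the fewest gene reads. Parental_TSA a also lay away from its mates for many of the names, as the values below show. For several results that rest on these libraries, values are given with and without them. Epithelial markers of the labelled line were present, with a summed level of 4316 to 8965 CPM (reads scaled to a common number of gene reads per library) for 7 genes, each at 96.5 CPM or more in every library. Of 7 fibroblast markers, 6 stayed at or under 0.803 CPM and COL1A1 ran from 4.61 to 32.2. The immune markers PTPRC and CD3E stayed at or under 0.187 CPM, CD14 and LYZ at or under 1.76, while CD68 ran from 21.9 to 70.0. The immune list summed to 70.0 ± 1.86 CPM in carboplatin_72h, its highest group, against 31.5 ± 1.42 in parental_DMSO (SD, n = 3). The 5 endothelial markers summed to 17.5 to 118 CPM, highest in erlotinib_24h (116 ± 2.84, SD, n = 3, against 18.1 ± 0.543 in parental_DMSO), mostly PECAM1 and CDH5, which reached 71.6 and 44.3, with KDR up to 12.0, VWF up to 4.12 and TEK at or under 0.175. Whether these markers have a part in the differences below was not tested.

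The 97 names took 1037874 reads over the 18 libraries, 66.6% of all reads of the DNA transposon class, with a range of 64.3% to 68.6% between libraries. They made up 4.62% to 5.42% of repeat reads once ribosomal RNA repeats were set aside. Tigger names held 54.5% of these reads, Charlie names 28.0%, MER5 5.29%, MER58 4.89%, MER20 4.27%, Cheshire 1.37%, Arthur 0.942% and Zaphod 0.768%. The 10 names with the most reads held 57.4% of them: Tigger1, Charlie1a, Charlie8, Tigger3b, Tigger2, MER20, MER58A, MER5A, Tigger3a and MER5B. Tigger1 alone gave 17.1% to 25.4% of the reads of a library. The median name had 4221 reads over the series, 25 names had more than 10000 and 14 fewer than 1000, so the precision differs widely between names. Read numbers are not corrected for element length or copy number, and levels of different names are therefore not compared.

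The CPM scale rests on gene reads, adjusted between libraries by TMM factors from genes. On this scale the 97 names summed to 684, 690 and 672 CPM in parental_DMSO, 706, 690 and 688 in DTP and 730, 704 and 711 in erlotinib_24h. Carboplatin_72h had 899, 933 and 881 CPM, parental_TSA 572, 584 and 581, and DTP_TSA 752, 688 and 695. Carboplatin_72h was thus above, and parental_TSA below, every library of the other groups, whereas DTP overlapped parental_DMSO. The means were 682 ± 9.29 in parental_DMSO and 695 ± 10.0 in DTP, 715 ± 13.3 in erlotinib_24h and 904 ± 26.3 in carboplatin_72h, and with TSA 579 ± 5.92 in parental cells and 712 ± 34.9 in DTP cells (SD, n = 3). In bulk RNA, a change in the number of cells that hold a transcript and a change in its amount per cell cannot be told apart.

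The order of groups changed when the same names were scaled to repeat reads, adjusted by TMM on repeat names. Carboplatin_72h then had 23933, 24666 and 23957 CPM of repeat reads, below the 27216, 26409 and 26632 of parental_DMSO. Erlotinib_24h was also lower, with 23548, 23187 and 23485, and DTP overlapped parental_DMSO with 26852, 26623 and 27006. Parental_TSA had 24875, 24497 and 23474, and DTP_TSA 23641, 23191 and 23820. After carboplatin these names were therefore higher per gene reads and lower per TMM-adjusted repeat reads than in parental_DMSO. Parental_TSA was lower on both scales. Unadjusted shares of repeat reads overlapped, at 3.01%, 1.45% and 3.67% in parental_DMSO and 1.66%, 2.93% and 2.51% in carboplatin_72h. Ribosomal RNA repeats took 26.4% to 90.0% of the repeat reads of a library. Carboplatin_72h had the highest group mean for 65 of the 97 names per gene reads (67.0%, against 51.0% of all repeat names tested). Parental_TSA had the lowest for 53 (54.6%, against 37.8% of all). Per repeat reads, parental_DMSO was highest for 35 names (36.1%, against 20.5% of all). The change of scale moved the median of all repeat names from 0.54 to -0.01 (log2) for carboplatin_72h and from 0.21 to -0.05 for erlotinib_24h against parental_DMSO.

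**Figure D1:**
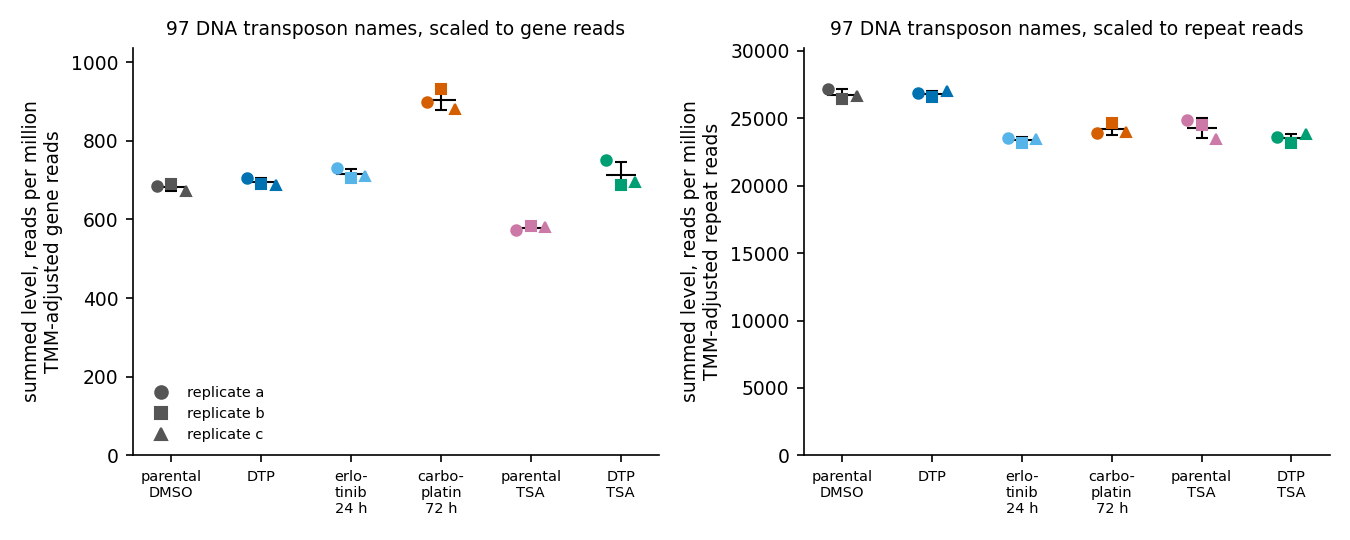
Summed level of the 97 DNA transposon names in each of the 18 libraries, as CPM of gene reads (left) and CPM of repeat reads (right); points are libraries, and lines show the mean ± SD of each group of 3. Per gene reads carboplatin_72h sits between 881 and 933 CPM, above all other libraries, while per repeat reads it sits below parental_DMSO.

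Single names were tested with the quasi-likelihood test of edgeR in 1 fit of the 18 libraries, with p-values adjusted over the 1101 repeat names tested. Changes are log2 fold changes ± standard error, 3 libraries per group, and a name is said to have risen or fallen when its adjusted p was under 0.05. Of the 97 names 96 were tested on gene reads, and all 97 among 1109 on repeat reads. Across the 7 comparisons 60 of the 97 names passed in at least 1. Beside the main count of each comparison stands the share of all repeat names that passed in the same direction, which is its background. Counts within a name group, such as Tigger, have no background of their own. For families and genes the share is of either direction, and the counts per direction over all of them follow. Comparisons that use parental_DMSO, DTP or erlotinib_24h libraries in common are not independent of each other.

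**Figure D2:**
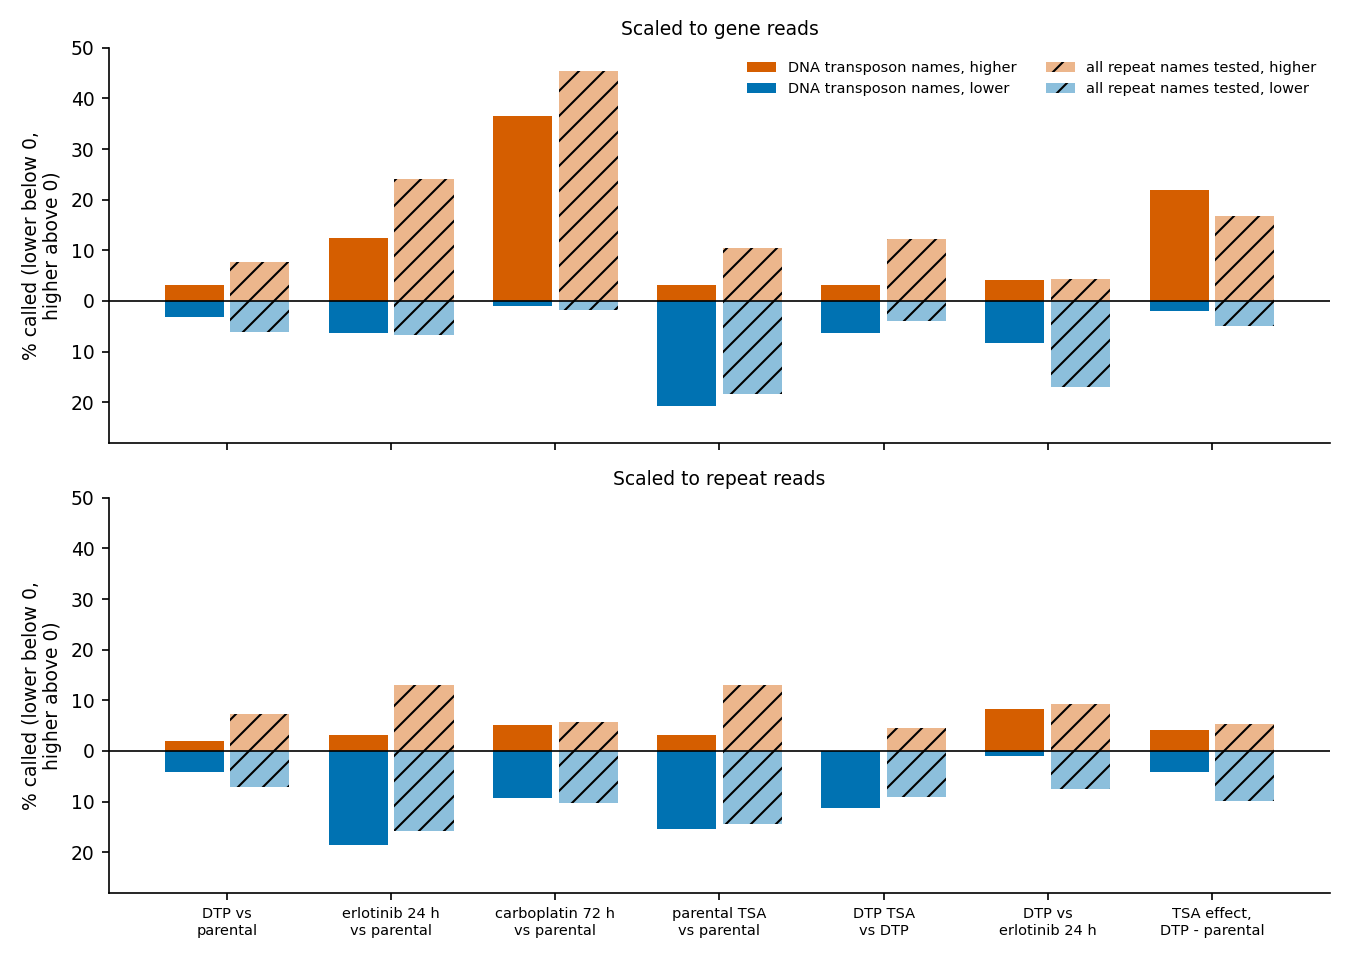
Percent of the DNA transposon names and of all repeat names that were higher (upwards) or lower (downwards) at an adjusted p under 0.05 in each comparison, scaled to gene reads and to repeat reads. After carboplatin 35 of 96 names were higher per gene reads, against 45.3% of all repeat names, and most of these calls were absent per repeat reads.

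**Figure D3:**
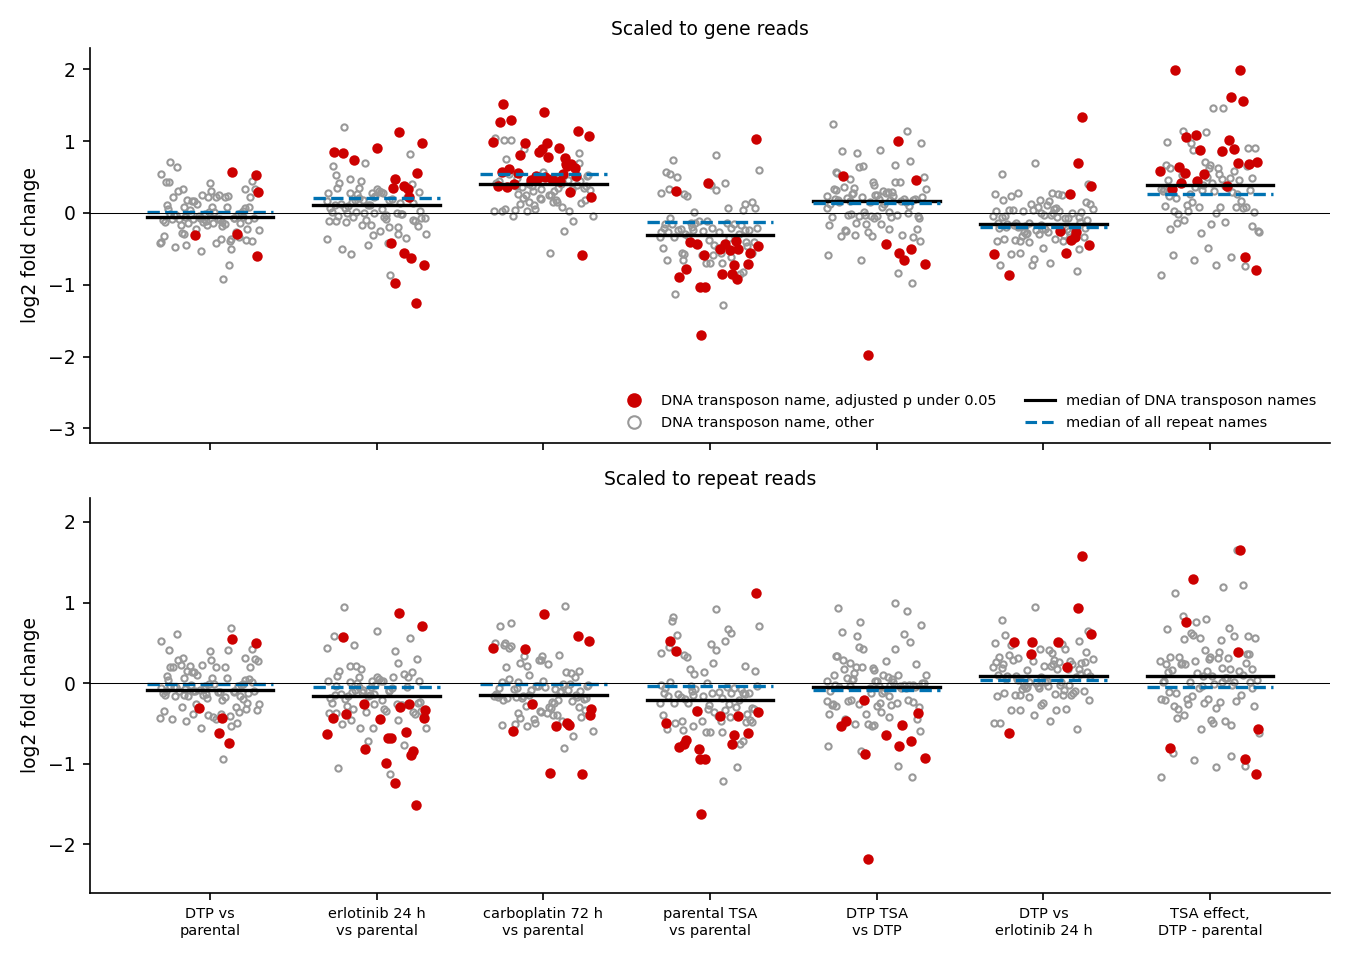
Log2 fold change of each tested DNA transposon name (points, filled where the adjusted p was under 0.05) in the 7 comparisons, scaled to gene reads (top) and to repeat reads (bottom). Solid lines are medians of these names and dashed lines medians of all repeat names; for carboplatin they lie at 0.41 and 0.54 in the top panel and at -0.14 and -0.01 in the bottom panel.

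Persisters were compared with parental cells to describe the population that survives erlotinib. Of 96 DNA transposon names tested, 3 rose (background 7.72%) and 3 fell (background 6.09%), with a median change of -0.06 over the names and 0.02 over all repeat names. The 3 that rose are all Charlie names and the 3 that fell all Tigger names. Per repeat reads 2 rose (background 7.39%) and 4 fell (background 7.03%).

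Charlie8, a hAT subfamily related to the transposase part of the human gene GTF2IRD2, was at 22.5, 19.5 and 20.6 CPM in parental_DMSO and 29.5, 29.9 and 30.7 in DTP. The groups did not overlap, and the change was 0.53 ± 0.10 (adjusted p = 0.00129). Charlie7 went from 5.53, 5.62 and 5.33 CPM to 8.03, 8.30 and 8.22, a change of 0.57 ± 0.14 (adjusted p = 0.00919). Both also passed per repeat reads, at 0.50 ± 0.11 and 0.55 ± 0.12. Charlie1a, with the second largest share of the reads, went from 49.3, 51.5 and 49.2 CPM to 60.6, 61.4 and 62.2. Its change of 0.30 ± 0.08 (adjusted p = 0.0184) no longer passed per repeat reads (0.28 ± 0.09, adjusted p = 0.0647).

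Of the Tigger names that fell, Tigger6a was the tightest, at 16.2, 16.2 and 16.3 CPM in parental_DMSO and 13.3, 13.1 and 13.3 in DTP, a change of -0.29 ± 0.09 (adjusted p = 0.0417). Tigger2b_Pri fell from 5.85, 6.04 and 5.40 CPM to 4.06, 3.71 and 3.69, by 0.59 ± 0.17 on the log2 scale (adjusted p = 0.0228). Tigger2a changed by -0.31 ± 0.10 (adjusted p = 0.0470). Tigger1, with the most reads, was at 159, 165 and 157 CPM in parental_DMSO and 177, 171 and 175 in DTP and did not pass. The count of 6 rests on few libraries: it was 3 without parental_DMSO a, b or c, 2 without DTP b or c, and 12 without DTP_TSA a or parental_TSA a, which belong to neither group compared. It was 23 without replicate a of both TSA groups, and 23 with only the compared groups in the fit. Tigger2a lost its call without any 1 of 15 libraries (adjusted p up to 0.170), Tigger6a of 12 (up to 0.133), and Charlie1a and Tigger2b_Pri of 4 each (up to 0.0743 and 0.0859). The last 4 were parental_DMSO a, DTP b and DTP c with parental_DMSO c for Charlie1a and parental_DMSO b for Tigger2b_Pri.

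After 24 hours of erlotinib 12 of 96 names were higher than in parental_DMSO (background 24.2%) and 6 lower (background 6.63%). The median change was 0.11 over these names and 0.21 over all repeat names. Charlie names had 6 higher and 2 lower of 40 (median 0.20), and Tigger names 3 higher and 4 lower of 39 (median -0.03). Per repeat reads the split turned, with 3 higher (background 13%) and 18 lower (background 15.9%). The gene-read count of 18 was 11 without erlotinib_24h b, 30 without replicate a of both TSA groups and 34 with only the compared groups in the fit.

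Charlie7 and Charlie8, which rose in DTP, stood higher still at 24 hours. Charlie7 reached 12.9, 11.6 and 11.6 CPM, 1.13 ± 0.14 above parental_DMSO (adjusted p = 1.09e-05). Charlie8 reached 42.0, 39.8 and 40.8 CPM, 0.97 ± 0.10 above (adjusted p = 1.4e-06). Charlie2a, a related hAT subfamily, went from 4.48, 4.95 and 4.83 CPM to 8.73, 8.15 and 8.56, a change of 0.83 ± 0.11 (adjusted p = 1.66e-05). All 3 also passed per repeat reads, at 0.87, 0.71 and 0.57. Tigger1a_Art (0.91 ± 0.32, adjusted p = 0.0421) and Charlie23a (0.85 ± 0.28, adjusted p = 0.0299) rose on few reads, near 1 CPM. Their calls were lost without any 1 of 13 and of 5 libraries, the latter being parental_DMSO a, parental_DMSO b and each erlotinib_24h library (adjusted p up to 0.174 and 0.118).

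Charlie17 moved the opposite way. It was at 13.3, 13.3 and 12.8 CPM in parental_DMSO, 5.42, 5.63 and 5.46 after 24 hours of erlotinib, and 14.2, 12.9 and 14.5 in DTP. The fall at 24 hours was -1.26 ± 0.14 (adjusted p = 3.53e-06), and per repeat reads -1.52 ± 0.15. Charlie24 (-0.97 ± 0.24, adjusted p = 0.00578), Tigger2b_Pri (-0.72 ± 0.17, adjusted p = 0.00321), Tigger12A (-0.63 ± 0.15, adjusted p = 0.00411) and Tigger6a (-0.56 ± 0.09, adjusted p = 0.00018) fell as well. Tigger6a was at 11.6, 10.5 and 11.0 CPM, below all DTP and parental_DMSO libraries. Among the names with the most reads, MER20 (0.34 ± 0.08, adjusted p = 0.00505) and Tigger3b (0.22 ± 0.06, adjusted p = 0.0174) rose per gene reads and did not pass per repeat reads (0.07 and -0.04). The call of Tigger3b was also lost without parental_DMSO c, erlotinib_24h b or erlotinib_24h c (adjusted p up to 0.104).

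The direct comparison of DTP with erlotinib_24h sets cells that survived long exposure against cells after short exposure. Because survival, time in culture and length of exposure differ together, this comparison cannot separate them. In it 4 of 96 names were higher in DTP (background 4.27%) and 8 lower (background 17%), with a median of -0.15 against -0.19 over all repeat names. Charlie17 was higher in DTP by 1.33 ± 0.14 (adjusted p = 7.52e-06), Tigger12A by 0.69 ± 0.15 (adjusted p = 0.00321) and Charlie1a by 0.37 ± 0.08 (adjusted p = 0.00288). Tigger6a (0.27 ± 0.09, adjusted p = 0.0448) lost its call without any 1 of 11 libraries (adjusted p up to 0.157) and with the replicate letter as a block (adjusted p = 0.0579). Charlie2a was lower in DTP by 0.86 on the log2 scale (-0.86 ± 0.11, adjusted p = 4.16e-05), at 4.81, 4.47 and 4.72 CPM, close to parental_DMSO. Tigger7 (-0.57 ± 0.14), Charlie7 (-0.56 ± 0.14), Charlie8 (-0.44 ± 0.10) and Charlie2b (-0.38 ± 0.09) were lower too, with adjusted p between 0.00321 and 0.00852, but not per repeat reads, where their adjusted p was 0.0862 to 0.342. Per repeat reads 8 names were higher in DTP (background 9.2%) and 1 lower (background 7.48%). The gene-read count of 12 was 20 without DTP_TSA a, 38 without replicate a of both TSA groups and 47 with only the compared groups in the fit.

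**Figure D4:**
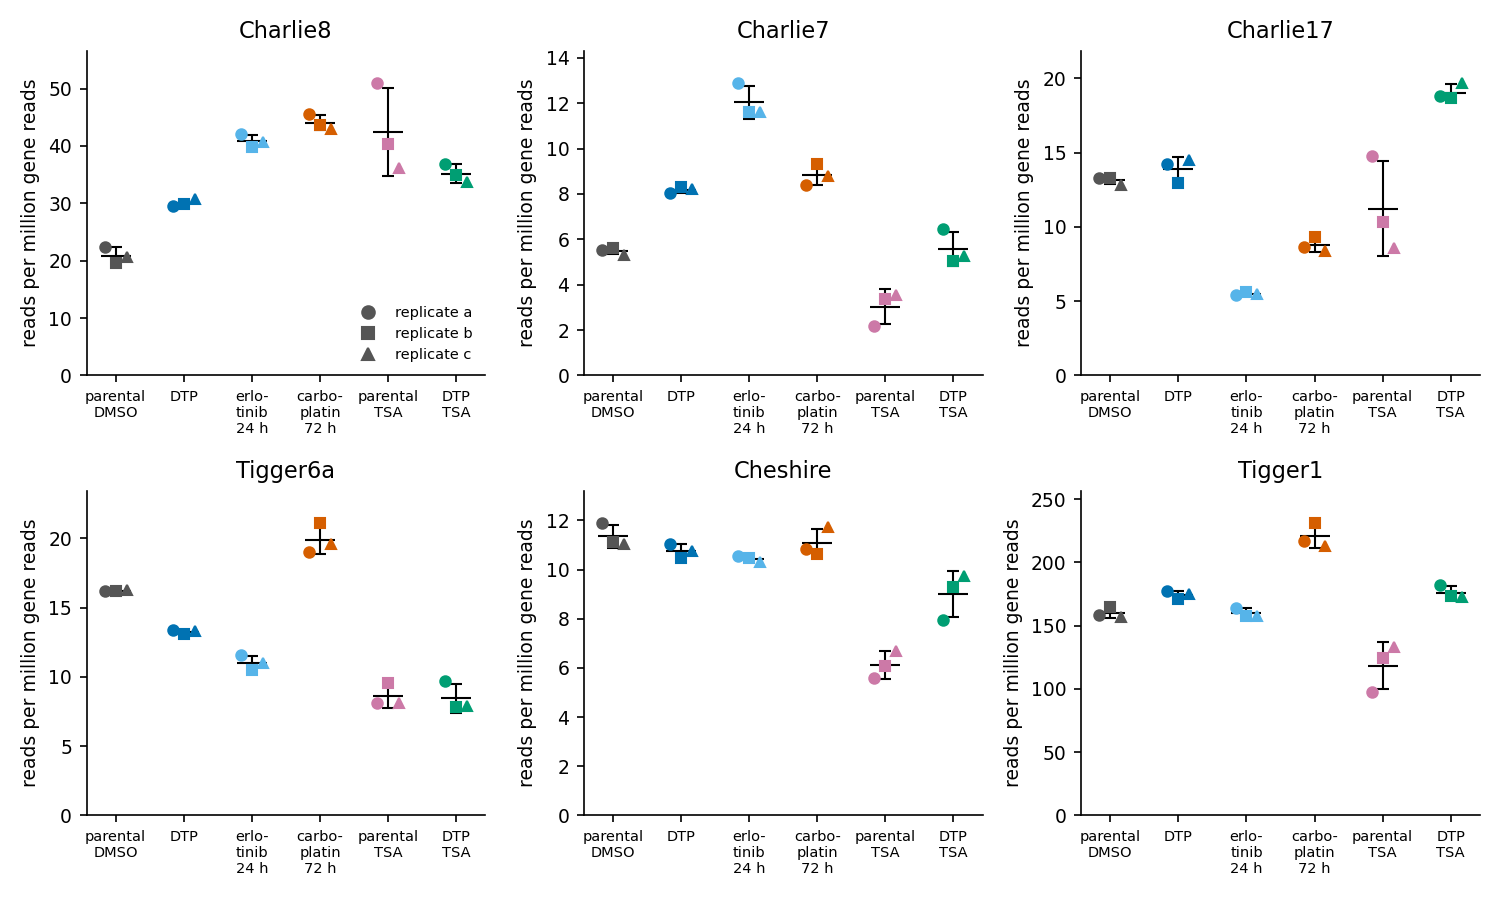
Level of 6 DNA transposon names in each library (CPM of gene reads, linear axes from 0), with circles, squares and triangles for replicates a, b and c and lines for the mean ± SD of each group of 3. Charlie8 lies lowest in parental_DMSO, Charlie17 lowest at 24 hours of erlotinib, and Tigger6a and Cheshire lower in parental_TSA than in parental_DMSO.

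Carboplatin for 72 hours raised the most names. Of 96 tested, 35 rose (background 45.3%) and 1 fell (background 1.82%), with a median change of 0.41 against 0.54 over all repeat names. The share of these names that rose was below that of repeats at large. Rises were found among 12 of 39 Tigger names (median 0.38), 14 of 40 Charlie names (median 0.43), 2 of 3 MER5, 2 of 2 MER20, 2 of 4 MER58, 2 of 3 Zaphod and 1 of 4 Arthur names. Cheshire, at 10.9, 10.6 and 11.7 CPM, overlapped the 11.1 to 11.9 of parental_DMSO.

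Charlie8 again rose, to 45.5, 43.7 and 42.9 CPM, a change of 1.08 ± 0.10 (adjusted p = 6.82e-07). Tigger12A went from 2.49, 2.71 and 2.60 CPM to 5.54, 5.65 and 5.98 (1.14 ± 0.15, adjusted p = 1.6e-05), whereas it had fallen at 24 hours of erlotinib. Charlie17a, at 0.970, 0.926 and 0.682 CPM before and 2.24, 2.29 and 2.34 after, changed by 1.41 ± 0.20 (adjusted p = 4.08e-05). Arthur1, a hAT-Tip100 element, rose from 3.66, 3.59 and 3.31 CPM to 6.60, 7.38 and 6.97 (0.99 ± 0.14, adjusted p = 2.73e-05). These 4 passed per repeat reads too, at 0.52, 0.59, 0.86 and 0.44. Charlie13a (1.30 ± 0.27, adjusted p = 0.00115) and Charlie23a (1.26 ± 0.28, adjusted p = 0.00157) rose per gene reads, with adjusted p of 0.0761 and 0.0862 per repeat reads.

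Charlie17 was the name that fell, to 8.64, 9.33 and 8.40 CPM (-0.58 ± 0.14, adjusted p = 0.00256). Zaphod2 had the largest fitted rise (1.51 ± 0.59, adjusted p = 0.0438), but parental_DMSO a at 0.560 CPM lay near the 0.592, 0.683 and 0.793 of carboplatin_72h, far above its mates at 0.0712 and 0.0984. Its call was lost without any 1 of 12 libraries (adjusted p up to 0.172). Zaphod3 rose by 0.76 (adjusted p = 0.0329), a call lost without any 1 library of parental_DMSO, erlotinib_24h or carboplatin_72h. Tigger1, at 217, 231 and 213 CPM, rose by 0.46 ± 0.08 (adjusted p = 0.000263). Tigger3b (0.52 ± 0.06), MER20 (0.63 ± 0.08), MER5A (0.50 ± 0.15), Tigger3a (0.40 ± 0.10), MER58A (0.38 ± 0.12) and Charlie1a (0.23 ± 0.08) rose as well, with adjusted p of 0.0269 or lower. MER58A lost its call without parental_DMSO a, parental_DMSO c or carboplatin_72h b, and Charlie1a without any 1 of 7 libraries (adjusted p up to 0.0727 and 0.165).

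This picture depends on the scale. Per repeat reads 5 names rose (background 5.77%) and 9 fell (background 10.4%), with a median of -0.14. Tigger1 was then at -0.09 ± 0.07 (adjusted p = 0.430), and Charlie1a at -0.32 ± 0.09 (adjusted p = 0.0293), which is a fall. Scaled to the spike-ins, which were added by cell number, and without DTP_TSA a, 89 of 97 names rose, with a median of 1.06. On that scale 966 of 1140 repeat names rose, with a median of 1.20. Without replicate a of both TSA groups, which are not among the groups compared here, 66 names rose and 2 fell per gene reads, and with only the compared groups in the fit 68 passed.

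TSA in parental cells, the short test of histone deacetylase inhibition, lowered more of these names than it raised. The same held for all repeat names. Of 96 names 3 rose (background 10.5%) and 20 fell (background 18.3%), with a median change of -0.31 against -0.13 over all repeat names. Of 39 Tigger names 10 fell (median -0.40), and of 40 Charlie names 7 fell and 2 rose (median -0.33). Cheshire, MER5B and MER58D fell as well. Per repeat reads 3 rose (background 13%) and 15 fell (background 14.5%). Without DTP_TSA a the count of 23 was 44, and without replicate a of both TSA groups 4 rose and 39 fell.

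Cheshire fell from 11.9, 11.1 and 11.1 CPM to 5.58, 6.09 and 6.69, a change of -0.89 ± 0.09 (adjusted p = 2.93e-06). Tigger6a fell from 16.2, 16.2 and 16.3 to 8.13, 9.54 and 8.12 (-0.91 ± 0.09, adjusted p = 2.93e-06). Both groups of libraries were fully apart, and without parental_TSA a the changes were -0.83 and -0.88. Charlie3 went from 3.20, 3.31 and 3.29 CPM to 1.18, 1.90 and 1.66 (-1.04 ± 0.19, adjusted p = 0.000781), and Charlie22a from 1.13, 1.39 and 1.52 to 0.50, 0.771 and 0.686 (-1.03 ± 0.20, adjusted p = 0.000966). Tigger17b had few reads, at 0.897, 0.698 and 0.727 CPM before and 0.129, 0.202 and 0.371 after. Its change of -1.70 ± 0.50 (adjusted p = 0.0173) lost its call without parental_DMSO a, parental_TSA a or parental_TSA b (adjusted p up to 0.0664).

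Among the names with the most reads, Tigger1 fell from 159, 165 and 157 CPM to 97.9, 124 and 133 (-0.43 ± 0.08, adjusted p = 0.000879). Charlie1a was at 42.1, 34.7 and 31.8 CPM (-0.47 ± 0.08, adjusted p = 0.000453). With any 1 library left out, the change ran from -0.53 to -0.32 for Tigger1 and from -0.59 to -0.38 for Charlie1a. Both calls were kept. Within its group, parental_TSA a was the lowest library for Tigger1 and the highest for Charlie1a. The same library held a Charlie sum of 202 CPM against 160 and 147 in its mates, and a Tigger sum of 277 against 320 and 328. Its place for the 2 largest name groups is thus opposite.

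Charlie8, Zaphod and Charlie2a were the 3 that rose. Charlie8 went to 50.9, 40.3 and 36.1 CPM, above every parental_DMSO library, by 1.02 ± 0.10 (adjusted p = 2e-06), and by 0.86 without parental_TSA a. Zaphod, at 3.79, 3.15 and 3.58 CPM before and 6.18, 4.15 and 3.80 after, changed by 0.42 ± 0.15 (adjusted p = 0.0445). This call was lost without any 1 of 15 libraries, and without parental_TSA a the change was 0.18 (adjusted p = 0.260). Charlie2a (0.31 ± 0.11, adjusted p = 0.0419) was lost without any 1 of 13, and without parental_TSA a was at 0.24 (adjusted p = 0.131).

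In DTP cells given TSA, 3 of 96 names rose (background 12.2%) and 6 fell (background 4%), with a median of 0.16 against 0.13 over all repeat names. Per repeat reads 11 fell (background 9.11%) and 0 rose by edgeR (background 4.51%), with 3 higher at an unadjusted p under 0.05. The count of 9 depended on single libraries. Without DTP_TSA a 15 names passed, without DTP_TSA b 18, without DTP_TSA c 17, without parental_TSA a 23, and without replicate a of both TSA groups 18 rose and 10 fell. Without DTP a, DTP b or DTP c the count was 4, 4 and 3. For 3 of the names with most reads DTP_TSA a lay far from its mates: MER5A was at 25.8, 15.0 and 16.0 CPM, MER5B at 7.94, 12.3 and 11.6, and MER58A at 12.5, 19.4 and 19.5.

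Charlie1a fell from 60.6, 61.4 and 62.2 CPM in DTP to 35.7, 38.5 and 38.4, a change of -0.71 ± 0.08 (adjusted p = 1.48e-05). Its higher level in DTP over parental_DMSO was thus not seen in DTP_TSA. Tigger6a fell further, from 13.3, 13.1 and 13.3 CPM to 9.67, 7.84 and 7.86 (-0.65 ± 0.09, adjusted p = 0.000152), and overlapped the parental_TSA libraries. Charlie7 went to 6.45, 5.04 and 5.26 CPM (-0.56 ± 0.14, adjusted p = 0.0133), on both sides of the 5.33 to 5.62 of parental_DMSO, a call lost without DTP c (adjusted p = 0.0509). Without DTP_TSA a these 3 changes were -0.68, -0.76 and -0.68.

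Tigger12A (-0.50 ± 0.15, adjusted p = 0.0352) lost its call without any 1 library of DTP, DTP_TSA b, DTP_TSA c or carboplatin_72h a (adjusted p up to 0.127). Tigger17b was at 0.565, 0.516 and 0.527 CPM in DTP and 0, 0.235 and 0.117 in DTP_TSA. Its fitted change of -1.98 ± 0.54 (adjusted p = 0.0210) was -1.60 without DTP_TSA a and lost its call without DTP a, b or c (adjusted p up to 0.0645). Of the names that rose, Charlie2a reached 7.82, 6.17 and 6.01 CPM (0.51 ± 0.11, adjusted p = 0.00501). Charlie17 reached 18.8, 18.7 and 19.7 (0.46 ± 0.14, adjusted p = 0.0318), above every other library, although its call was lost without parental_DMSO a, any DTP library, DTP_TSA c or erlotinib_24h c (adjusted p up to 0.130). Zaphod3 was at 2.06, 1.01 and 1.05 CPM against 0.648, 0.699 and 0.676 in DTP. Its change of 1.00 ± 0.28 (adjusted p = 0.0251) was 0.60 without DTP_TSA a (adjusted p = 0.0445) and lost its call without DTP a, b or c.

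The TSA comparisons in parental and DTP cells share no library, but both came from the same fit and are not independent. Charlie1a, Charlie1b, Charlie7, Tigger17b and Tigger6a fell in both, which is 5 of the 20 names lower in parental cells (25%) and 5 of the 6 lower in DTP cells (83.3%). Over all repeat names 26 fell in both, 12.9% of the 202 lower in parental cells and 59.1% of the 44 lower in DTP cells. The call of Charlie1b in DTP cells (-0.43, adjusted p = 0.0244) was lost without DTP a, b or c (adjusted p up to 0.0753). Charlie2a rose in both, as 1 of 3 and 1 of 3 (28 of 116 and 28 of 134 over all repeat names). Per repeat reads Cheshire and Tigger1 joined the 5, making 7 of 15 (46.7%) and 7 of 11 (63.6%), against 26.1% and 41.6% over all repeat names.

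The difference between both TSA effects was tested in the same fit, as the change in DTP minus that in parental cells. It was above 0 for 21 of 96 names (background 16.8%) and below 0 for 2 (background 4.9%), with a median of 0.39 against 0.27 over all repeat names. Of Tigger names 8 were above and 1 below, and of Charlie names 9 and 1. Charlie8 differed most by p among those below 0, at -0.80 ± 0.14 (adjusted p = 0.000796). It had risen by 1.02 with TSA in parental cells, while in DTP it went from 29.5, 29.9 and 30.7 CPM to 36.9, 34.9 and 33.7 (0.23, adjusted p = 0.116). Without parental_TSA a the difference was -0.65. Tigger12A (-0.61 ± 0.21, adjusted p = 0.0471) was the other below 0 and lost its call without any 1 of 14 libraries (adjusted p up to 0.109).

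Cheshire differed by 0.63 ± 0.12 (adjusted p = 0.00241). It stood at 7.94, 9.29 and 9.74 CPM in DTP_TSA, a smaller step from the 11.1, 10.5 and 10.7 of DTP than the fall in parental cells. Charlie2b, at 2.87, 3.12 and 2.93 CPM in parental_TSA and 5.16, 4.56 and 4.66 in DTP_TSA, differed by 0.70 ± 0.13 (adjusted p = 0.00177). Tigger19a, at 1.47, 2.14 and 2.98 CPM in parental_TSA and 3.46, 3.38 and 3.31 in DTP_TSA, differed by 1.06 ± 0.26 (adjusted p = 0.0102). Tigger1 differed by 0.45 ± 0.12 (adjusted p = 0.0134), and was at 182, 174 and 172 CPM in DTP_TSA, against 177, 171 and 175 in DTP. Zaphod3 differed by 1.61 ± 0.40 (adjusted p = 0.0103), or by 1.20 without DTP_TSA a. With any 1 library left out, the difference ran from 0.84 to 1.34 for Tigger19a and from 0.32 to 0.53 for Tigger1.

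These differences depend on the scale, on the fit and on single libraries. Per repeat reads 4 were above 0 (background 5.32%) and 4 below (background 9.83%), with a median of 0.09 against -0.05. Cheshire was then at 0.32 (adjusted p = 0.120) and Tigger1 at 0.13 (adjusted p = 0.387), while Charlie8 was at -1.12 (adjusted p = 0.000161). The gene-read count of 23 fell to 9 without parental_DMSO a or c, 10 without parental_DMSO b or DTP a, 7 without DTP b or c, 13 without erlotinib_24h a or c or any carboplatin_72h library, 15 without erlotinib_24h b and 14 without parental_TSA b. It was 15 with the replicate letter as a block, 3 with only the compared groups in the fit and 37 without replicate a of both TSA groups.

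**Figure D5:**
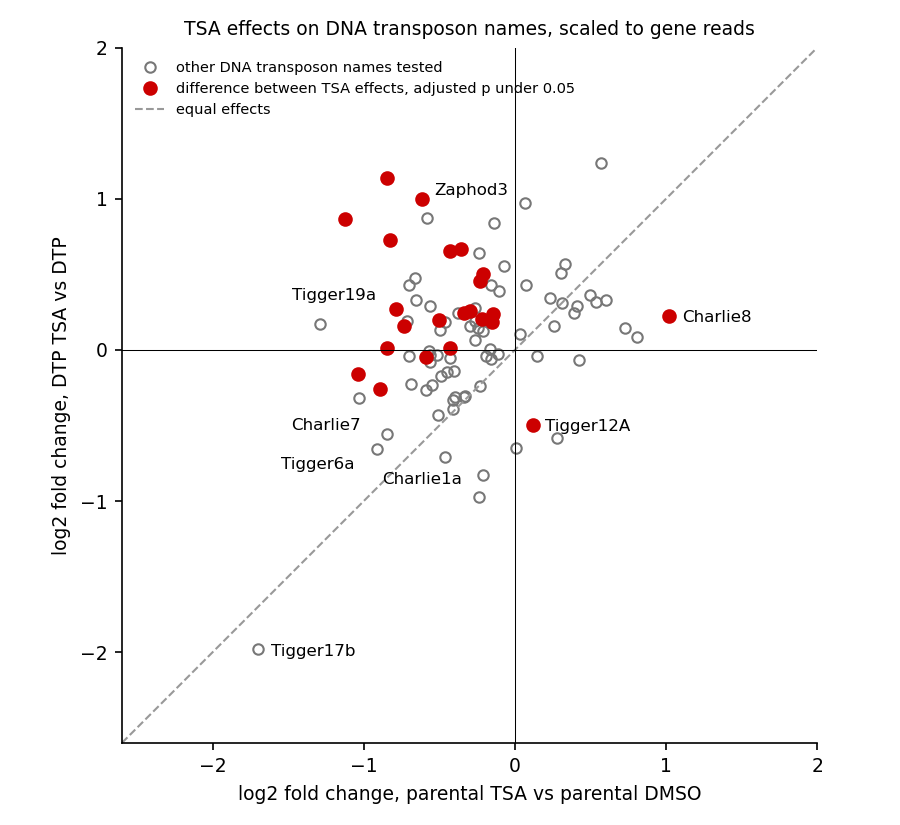
Change with TSA in DTP cells (vertical) against that in parental cells (horizontal) for each tested DNA transposon name, as log2 fold changes scaled to gene reads. Filled points are the 23 names whose 2 effects differed at an adjusted p under 0.05, and the dashed line marks equal effects. Charlie8 lies to the far right at 1.02 and 0.23, while Tigger6a and Charlie1a lie below 0 on both axes.

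Other old repeats give a frame for these changes, here per gene reads only. On that scale 45.3% of all repeat names rose with carboplatin and 1.82% fell. With TSA in parental cells 10.5% rose and 18.3% fell, and in DTP 7.72% and 6.09%. Between both TSA effects 16.8% differed upwards. Of 11 L2 and MIR names, relics of ancient retrotransposons, 10 rose with carboplatin (median 0.50) and 5 fell with TSA in parental cells (median -0.29), and their median in DTP was -0.12. The 88 L1M names, the old LINE-1 subfamilies, had medians of 0.36, -0.40 and -0.07 in those comparisons, with 53 higher and 1 lower, 3 higher and 51 lower, and 4 higher and 7 lower. With TSA their medians were -0.40 in parental cells and 0.17 in DTP cells, and 54 of 88 differed upwards between both effects. The medians of the DNA transposon names in the same 3 comparisons were 0.41, -0.31 and -0.06.

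The authors' table of repeat families holds 19 families of DNA transposons, tested among 57 repeat families. TcMar-Tigger, which takes in the Tigger names, was at 455, 466 and 444 CPM in parental_DMSO, rose to 593, 619 and 580 with carboplatin (0.39 ± 0.05, adjusted p = 2.14e-05) and fell to 346, 382 and 388 with TSA (-0.29 ± 0.05, adjusted p = 0.000761). hAT-Charlie was at 399, 398 and 398 CPM, rose to 532, 541 and 518 with carboplatin (0.41 ± 0.04, adjusted p = 1.15e-06) and to 469, 451 and 453 at 24 hours of erlotinib (0.20 ± 0.04, adjusted p = 0.00123), and fell with TSA (-0.18 ± 0.04, adjusted p = 0.00398). Per repeat reads TcMar-Tigger fell with carboplatin (-0.16, adjusted p = 0.00161), while hAT-Charlie was at -0.14 (adjusted p = 0.0504) and, at 24 hours of erlotinib, at -0.06 (adjusted p = 0.310), or -0.16 per spike-ins without DTP_TSA a. With TSA in parental cells hAT-Charlie did not pass per repeat reads (-0.08, adjusted p = 0.180), while TcMar-Tigger did (-0.19, adjusted p = 0.000241).

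hAT-Tip100, the family of Zaphod and Arthur, fell with TSA in both kinds of cell. It was at 46.5, 47.3 and 46.3 CPM in parental_DMSO and 29.9, 30.5 and 32.6 in parental_TSA (-0.59 ± 0.06, adjusted p = 8.65e-06), and at 45.1, 45.2 and 45.6 in DTP and 32.0, 39.3 and 38.6 in DTP_TSA (-0.31 ± 0.06, adjusted p = 0.00348). Of its names followed here, Zaphod rose with TSA in parental cells and Zaphod3 in DTP cells, and the 4 Arthur names were at -0.69 to 0.26 and -0.97 to 0.24 and did not pass. The Zaphod call was lost without any 1 of 15 libraries, and the change was 0.18 without parental_TSA a. The Zaphod3 call was lost without DTP a, b or c, and the change was 0.60 without DTP_TSA a. TcMar-Mariner rose from 77.7, 80.6 and 73.9 CPM to 105, 108 and 104 at 24 hours of erlotinib (0.45 ± 0.06, adjusted p = 3.79e-05) and by 0.59 ± 0.06 with carboplatin (adjusted p = 1.85e-06). Neither passed per repeat reads, at 0.19 (adjusted p = 0.0770) and 0.03 (adjusted p = 0.911). The piggyBac family fell from 9.87, 9.74 and 9.87 CPM to 4.60, 4.98 and 5.19 at 24 hours, by 1.00 ± 0.17 on the log2 scale (adjusted p = 0.000257), and was at 7.43, 6.20 and 6.94 in DTP (-0.52 ± 0.17, adjusted p = 0.0471).

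MULE-MuDR, a small family, rose per gene reads in DTP (0.47 ± 0.14, adjusted p = 0.0437), erlotinib_24h (1.09 ± 0.14, adjusted p = 2.87e-05), carboplatin_72h (0.93 ± 0.14, adjusted p = 6.05e-05) and parental_TSA (0.93 ± 0.14, adjusted p = 0.000188). Per repeat reads the value with carboplatin was 0.38 and did not pass (adjusted p = 0.0803). hAT-Blackjack rose in DTP, from 15.5, 16.2 and 15.5 CPM to 20.5, 19.0 and 20.3 (0.34 ± 0.07, adjusted p = 0.00763). Per gene reads it also rose at 24 hours (0.32) and with carboplatin (0.39), but not per repeat reads (0.06 and -0.16). With TSA in parental cells it fell on both scales (-0.41 and -0.30). The family labelled DNA? rose most in DTP, from 5.89, 6.75 and 6.03 CPM to 14.2, 14.4 and 13.8 (1.18, adjusted p = 0.000964). Per repeat reads it rose by 1.16. The family hAT? rose at 24 hours (1.38) and with carboplatin (1.68), and passed per repeat reads too (1.12 and 1.13). In all, 3 DNA transposon families rose and 1 fell in DTP (17.5% of all families passed in either direction), 7 and 1 at 24 hours (33.3%), 9 rose with carboplatin (52.6%), and 1 rose and 7 fell with TSA in parental cells (40.4%). With TSA in DTP 2 rose and 2 fell (19.3%), between DTP and 24 hours 1 and 4 (31.6%), and between both TSA effects 5 were above and 1 below 0 (29.8%). Over all 57 families 6 rose and 4 fell in DTP, 17 and 2 at 24 hours, and 29 and 1 with carboplatin. With TSA these counts were 6 and 17 in parental cells and 9 and 2 in DTP. Between DTP and 24 hours they were 4 and 14, and between both TSA effects 16 and 1. Several splits of the DNA transposon families turned per repeat reads. There 3 rose and 1 fell in DTP (17.5%), 3 and 5 at 24 hours (42.1%), 1 and 3 with carboplatin (19.3%), and 2 and 5 with TSA in parental cells (40.4%). With TSA in DTP 0 rose by edgeR and 6 fell (22.8%), between DTP and 24 hours 6 were higher and 0 lower (24.6%), and between both TSA effects 0 were above and 2 below 0 (19.3%). At an unadjusted p under 0.05 these counts of 0 were 2, 2 and 1. Over all 57 families per repeat reads 5 rose and 5 fell in DTP, 9 and 15 at 24 hours, and 3 and 8 with carboplatin. With TSA they were 9 and 14 in parental cells and 1 and 12 in DTP. Between DTP and 24 hours they were 12 and 2, and between both TSA effects 2 and 9.

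Human genes built from old transposases were followed as a list of 37, of which 35 are in the gene table and 33 were tested among 17594 genes. CENPB, POGK, JRK and the TIGD genes descend from pogo-like transposases as do Tigger elements, the ZBED genes from hAT transposases and the PGBD genes from piggyBac. In DTP 7 of 33 rose and 2 fell (59% of all genes passed in either direction), at 24 hours of erlotinib 8 and 10 (69.5%), and with carboplatin 8 and 6 (59%). With TSA 2 rose and 15 fell in parental cells (58.3%), and 8 rose and 18 fell in DTP cells (56.3%), with medians of -0.21 and -0.60 against 0.06 and -0.08 over all genes. Between DTP and 24 hours 15 were higher and 2 lower (55.5%), and between both TSA effects 9 were above and 6 below 0 (38.4%). Over all 17594 genes 5465 rose and 4912 fell in DTP, 6445 and 5778 at 24 hours, and 5329 and 5047 with carboplatin. With TSA these counts were 5428 and 4836 in parental cells and 4497 and 5406 in DTP cells. Between DTP and 24 hours they were 5382 and 4375, and between both TSA effects 2702 and 4056.

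POGK, a pogo-derived zinc finger protein, was at 86.5, 90.1 and 86.8 CPM in parental_DMSO and 82.4, 82.8 and 82.6 in DTP. It was at 43.1, 43.8 and 43.0 at 24 hours of erlotinib (-1.02 ± 0.06, adjusted p = 5.07e-11), 54.3, 57.0 and 56.2 with carboplatin (-0.65 ± 0.06, adjusted p = 3.5e-08) and 30.1, 32.9 and 31.4 with TSA (-1.48 ± 0.06, adjusted p = 3.63e-12). With TSA in DTP it fell by 1.10 on the log2 scale (adjusted p = 9.79e-11). With carboplatin POGK fell while 12 of 39 Tigger names rose per gene reads, against 45.3% of all repeat names. Per repeat reads the TcMar-Tigger family fell with carboplatin (-0.16, adjusted p = 0.00161). With TSA in parental cells POGK and 10 of 39 Tigger names fell, against 18.3% of all repeat names. Whether changes of POGK and of Tigger names are linked was not tested.

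PGBD1, a piggyBac-derived gene, was at 10.9, 10.3 and 11.2 CPM in parental_DMSO, 4.47, 4.37 and 3.74 at 24 hours (-1.36 ± 0.09, adjusted p = 3.57e-10) and 10.8, 10.9 and 10.8 in DTP. It rose with TSA in DTP to 22.3, 22.1 and 22.0 (1.03 ± 0.09, adjusted p = 2.58e-08). ZBED2, a hAT-derived transcription factor, went from 0.382, 0.456 and 0.460 CPM in parental_DMSO to 3.71, 3.75 and 4.01 in DTP (3.15 ± 0.28, adjusted p = 5e-08). ZBED2 also rose at 24 hours (1.27, adjusted p = 0.000653) and with carboplatin (1.21, adjusted p = 0.00135). ZBED1, a regulator of ribosomal protein genes, rose in DTP (0.53 ± 0.07, adjusted p = 8.26e-06) and with carboplatin (0.54 ± 0.07, adjusted p = 6.38e-06), and fell with TSA in parental cells (-1.25 ± 0.07, adjusted p = 4.68e-10) and in DTP (-0.86 ± 0.07, adjusted p = 3.81e-08). CENPB, which binds centromeric DNA, fell with carboplatin (-0.79 ± 0.10, adjusted p = 3.57e-06) and at 24 hours of erlotinib (-0.86 ± 0.10, adjusted p = 7.58e-07). It fell less with TSA in parental cells (-0.27, adjusted p = 0.0281) and in DTP (-0.29, adjusted p = 0.0219).

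ZBED4 fell in DTP (-0.69 ± 0.10) and at 24 hours (-0.99 ± 0.10). ZBED5 fell with TSA in parental cells (-1.13 ± 0.14) and in DTP (-1.10 ± 0.14). KIAA1586 fell at 24 hours (-1.32 ± 0.09) and with TSA in parental cells (-0.87 ± 0.09). TIGD2 rose in DTP (0.45 ± 0.08) and TIGD7 with carboplatin (0.54 ± 0.09). TIGD3 rose with TSA in DTP (1.95 ± 0.24) and in parental cells (1.93 ± 0.25). The adjusted p of these values was 0.000179 or lower. Several of these genes passed in other comparisons as well.

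GTF2IRD2, whose transposase part is related to Charlie8, was at 4.02, 3.66 and 4.26 CPM in parental_DMSO, 5.36, 5.26 and 5.86 in DTP, and 6.77, 7.48 and 7.07 at 24 hours of erlotinib, where Charlie8 was also higher. With carboplatin it was at 3.41, 3.67 and 3.98, within or just below the parental range, while Charlie8 rose by 1.08. With TSA it fell in DTP to 1.97, 2.49 and 1.86 (-1.38 ± 0.21, adjusted p = 2.53e-05), and in parental cells was at 5.73, 3.57 and 2.70. The difference between both TSA effects was -1.37 ± 0.29 (adjusted p = 0.00132). GTF2IRD2 has a near-identical copy, GTF2IRD2B, and the counts may divide reads between them. GTF2IRD2B was at 4.18, 5.02 and 3.98 CPM in parental_DMSO and 8.24, 9.06 and 8.08 with carboplatin (0.94 ± 0.41, adjusted p = 0.0564). It rose in DTP (1.45, adjusted p = 0.00573) and at 24 hours (2.29, adjusted p = 0.000109). With TSA it fell in parental cells (-1.26, adjusted p = 0.0175) and in DTP (-2.98, adjusted p = 2.18e-05).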

How the data were processed

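RNA of 18 PC9 libraries was measured by polyA-selected RNA-seq. The deposited tables hold expected counts, not scaled between libraries, estimated with Salmon per the submitters' processing notes, with genome build and repeat annotation not given in the sources used here. A total of 3 columns in each table matched no sample and were not used. Groups came from the sample titles. Counts were rounded, filtered with edgeR's filterByExpr (17594 genes, 1101 repeat names; 57 families unfiltered) and tested in R 4.3.3 with edgeR 4.0.16 and limma 3.58.1, by the quasi-likelihood test, in 1 fit of 18 libraries with 12 residual degrees of freedom. Library sizes were gene reads times TMM factors, or repeat reads times TMM factors from repeat names. Benjamini-Hochberg adjustment ran per comparison, threshold 0.05. Biological coefficients of variation were 0.229 for names, 0.350 for families and 0.136 for genes. Depth ran from 28425 to 76510 reads per library on the 97 names.

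Named are the 10 names with most reads, up to 5 per direction and comparison with the largest change among those that passed at 0.2 CPM or more, up to 3 per direction by p for the difference between TSA effects, all Cheshire, Zaphod and Arthur names, DNA transposon families, and the 4 transposase-derived genes with the smallest p per comparison. MER58D and Charlie1b are also named, to complete small counts. The names and lists were chosen with earlier results of these data known. The alternatives included DESeq2 1.42.0, size factors of DESeq2 within edgeR, repeat reads or spike-ins as library sizes, other filters, the replicate letter as a block, the compared groups alone and left-out libraries. The test was checked on simulated data with the same spread for all names and no outlying library. That check therefore does not cover libraries such as DTP_TSA a. All correlations of deviations between same-lettered samples exceeded 0.1 in 2 of 15 pairs of groups for names, 1 of them DTP with erlotinib_24h (0.111 to 0.247), and in 0 of 15 for genes. The labels do not say what a letter shares.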

Additional observations from a re-analysis of the deposited data

Results flagged for a closer look

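The entries here are values whose TSA effect differed between DTP and parental cells by the test of the difference itself in edgeR, given as log2 change in DTP minus that in parental cells. Above 0 were Charlie2b (0.70), Cheshire (0.63), Tigger19a (1.06), Tigger1 (0.45), Tigger2 (0.34), Tigger3a (0.42), Arthur1 (0.58) and Zaphod3 (1.61), and below 0 Charlie8 (-0.80) and Tigger12A (-0.61). Arthur1, Tigger2, Tigger3a and Tigger12A passed only with nearly all libraries in the fit, and lost their call without any 1 of 16, 13, 14 and 14 libraries. For Zaphod3 the difference was 1.20 without DTP_TSA a.

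Of the DNA transposon families, TcMar-Tc2 (0.48), TcMar-Tigger (0.38), hAT-Tip100 (0.28), hAT-Charlie (0.19) and the small family TcMar? (1.94) differed upwards, and TcMar-Mariner (-0.28) downwards. The value of TcMar? rests on few reads, at 0.0771, 0.172 and 0.213 CPM in DTP and 0.716, 0.387 and 0.292 in DTP_TSA. Its highest library was DTP_TSA a. Per repeat reads none of the 5 upward differences passed by edgeR: they were 0.16 (adjusted p = 0.266), 0.06 (0.354), -0.03 (0.944), -0.13 (0.217) and 1.62 (0.122), in the same order, while TcMar-Mariner was at -0.59 (0.00362). Of the transposase-derived genes, KIAA1586 (0.73), PGBD1 (0.62) and POGK (0.38) differed upwards and GTF2IRD2 (-1.37) downwards. PGBD1 rose with TSA in both kinds of cell, more in DTP, whereas POGK fell in both, less in DTP. Both TSA groups hold a replicate a that stood apart, DTP_TSA a by its spike-in and ribosomal share, and its part in these differences was not tested beyond the values given without it.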

How the results depend on the processing

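Counts of DNA transposon names that passed are given in the order DTP, erlotinib_24h, carboplatin_72h and parental_TSA against parental_DMSO, DTP_TSA against DTP, DTP against erlotinib_24h, and the difference between TSA effects. They were 6, 18, 36, 23, 9, 12 and 23. Leaving out 1 library in turn gave 2 to 12, 11 to 25, 25 to 54, 17 to 44, 3 to 23, 10 to 20 and 7 to 28. Without replicate a of both TSA groups they were 23, 30, 68, 43, 28, 38 and 37. Counts that moved by more than 1.5 times elsewhere were 11, 20 and 35 with DESeq2 (DTP, DTP_TSA and the difference), 11 and 14 with no filter (erlotinib_24h and the difference), 14 and 8 per repeat reads (carboplatin_72h and the difference), and, with only the compared groups in the fit, 23 (DTP), 34 (erlotinib_24h), 68 (carboplatin_72h), 47 (DTP against erlotinib_24h) and 3 (the difference). With the replicate letter as a block the difference had 15 and no other count moved that far. Scaled to spike-ins over 18 libraries all 7 counts were 0 by edgeR, with 0 at an unadjusted p under 0.05, and without DTP_TSA a they were 1 (DTP), 89 (carboplatin_72h), 2 (DTP_TSA) and 2 (the difference) where they moved that far.

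Among calls on families, and on names and genes chosen by the naming rule above, changes of sign occurred under 2 kinds of scaling. Per repeat reads, carboplatin gave hAT-Charlie -0.1377, hAT-Blackjack -0.1643, hAT-Tip100 -0.3465, TcMar-Tc2 -0.1883, TcMar-Tigger -0.1606, Charlie1a -0.3245, MER58A -0.172, MER5A -0.0502, Tigger1 -0.088, Tigger3a -0.1501 and Tigger3b -0.0367. Erlotinib_24h gave hAT-Charlie -0.059 and Tigger3b -0.0447, DTP against erlotinib_24h hAT-Charlie 0.0993, and the difference hAT-Charlie -0.1326 and hAT-Tip100 -0.0281. Per spike-ins, with and without DTP_TSA a, erlotinib_24h gave hAT-Blackjack -0.0439, hAT-Charlie -0.1585, MER20 -0.0274 and Tigger3b -0.1463 and -0.1464. Carboplatin gave Charlie17 0.0757 and 0.0746. DTP against erlotinib_24h gave hAT-Charlie 0.3132, TcMar-Mariner 0.0755, MER20 0.1193, Tigger3b 0.1861, Charlie2b 0.0731 and 0.0734, and Charlie8 0.0089 and 0.009. Over all 18 libraries only, Charlie2a was at -0.054 in DTP_TSA against DTP, and the difference at -0.2804 for hAT-Charlie, -0.0836 for hAT-Tip100, -0.0446 for TcMar-Tc2, -0.1514 for TcMar-Tigger, -0.0624 for Tigger1, -0.1913 for Tigger2, -0.1731 for Tigger3a and -0.1418 for POGK. The cause was not tested. Of the 127 calls on single names, DESeq2 kept 126 and the DESeq2 size factors 118, repeat reads 54. Of the same 127, 14 changed sign per repeat reads, 14 per spike-ins and 9 per spike-ins without DTP_TSA a. Names near 1 CPM rest on few reads.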
